A study of Homo sapiens with 28 samples.

Results

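The 8 genes described here make acetyl-CoA in the cytosol, turn it into palmitate, and control that pathway. They are SLC25A1, ACLY, ACSS2, ACACA, ACACB, FASN, SREBF1 and MLXIPL, taken by gene symbol from the 60286 genes counted. They were measured in HT-1080, an established human fibrosarcoma line labelled wild type, in 28 libraries that fall into 7 groups of 4. Cells were kept overnight in the vehicle DMSO, in 10 nM RSL3, in 80 µM of the 18-carbon fatty acid LA (linoleic acid), in 80 µM of its conjugated isomer CLA18:2, in RSL3 with either of these at the same doses, or in 5 µM of the conjugated triene CLA18:3. RSL3 is a covalent inhibitor of the lipid peroxide reductase GPX4 and is widely used to trigger ferroptosis. The sample labels write mM for the fatty acids, the study's design text µM, and µM is used. CLA18:3 had its own dose and no group with RSL3, and all groups came from 1 cell line, so nothing here bears on other cells. The positions of the double bonds in the conjugated acids are not given in the sources used here.

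Cells build fatty acids from citrate. SLC25A1 carries citrate out of the mitochondrion, ACLY splits it to cytosolic acetyl-CoA, and ACSS2 makes the same acetyl-CoA from acetate. ACACA and ACACB are the acetyl-CoA carboxylases that form malonyl-CoA, the first for synthesis in the cytosol and the second at the mitochondrial surface, where malonyl-CoA restrains carnitine-dependent uptake of fatty acids. FASN then assembles palmitate. SREBF1 encodes the SREBP1 transcription factors, which switch on these genes after release from the endoplasmic reticulum, and MLXIPL encodes ChREBP, a glucose-responsive activator of the same genes in liver and fat. Polyunsaturated fatty acids are known to lower SREBP1 activity in many cells.

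RefSeq promoter windows on build GRCh38.p14, from 250 bases before to 50 bases after a start, were at hand for 7 of the 8 genes in 12 windows. The 3 printed here belong to the genes that fell together with CLA18:2, so that their starts can be compared. Capitals mark matches, on either strand, to the CCAAT box (CCAAT), the GC box (GGGCGG) or the antioxidant response core (TGACNNNGC), and neighbouring matches can overlap. The genes lie on chromosomes 17 (ACLY at 41866908 to 41930542, SREBF1 at 17810399 to 17837002, FASN at 82078333 to 82098332) and 22 (SLC25A1 at 19175575 to 19178830), all on the minus strand in GENCODE 29 on GRCh38. The windows lie at chr17:41918973-41919272 on the minus strand for the first of 2 ACLY starts, at chr17:17836937-17837236 on the minus strand for SREBF1, and at chr22:19178687-19178986 on the minus strand for SLC25A1.
ACLY: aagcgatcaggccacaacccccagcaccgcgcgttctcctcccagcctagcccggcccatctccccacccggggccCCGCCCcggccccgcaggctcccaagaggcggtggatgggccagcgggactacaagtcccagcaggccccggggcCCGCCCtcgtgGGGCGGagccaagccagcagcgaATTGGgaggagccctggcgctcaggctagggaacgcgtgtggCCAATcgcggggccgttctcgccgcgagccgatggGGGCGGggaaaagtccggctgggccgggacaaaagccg
SREBF1: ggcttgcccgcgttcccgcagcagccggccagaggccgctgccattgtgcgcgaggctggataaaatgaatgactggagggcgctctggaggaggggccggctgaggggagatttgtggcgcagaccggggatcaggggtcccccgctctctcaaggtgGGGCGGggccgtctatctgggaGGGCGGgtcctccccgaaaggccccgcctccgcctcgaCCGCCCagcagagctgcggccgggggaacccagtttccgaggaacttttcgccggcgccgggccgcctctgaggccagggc
SLC25A1: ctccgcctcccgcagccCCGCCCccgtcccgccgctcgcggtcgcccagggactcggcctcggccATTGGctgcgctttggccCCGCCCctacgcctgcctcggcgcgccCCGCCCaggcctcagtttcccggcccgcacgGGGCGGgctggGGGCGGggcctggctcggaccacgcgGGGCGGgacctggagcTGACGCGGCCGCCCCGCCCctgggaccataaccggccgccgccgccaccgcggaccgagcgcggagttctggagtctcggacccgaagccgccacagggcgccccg
The ACLY window held 2 CCAAT boxes and 4 GC boxes, the SREBF1 window 0 and 3, and the SLC25A1 window 1 and 8. The antioxidant response core was matched once, in SLC25A1, with its first base 56 before the start, overlapping a GC box. No window of the 7 genes matched the sterol regulatory element TCACNCCAC or the E-box CACGTG. SREBF1 had 1 window here, at 1 start, and any other start of that gene is not covered. Of 35116 windows of this length, 34.6% hold a CCAAT box, 45.0% a GC box, 13.3% the antioxidant core, 7.26% the E-box and 1.13% the sterol element. These are matches of letters in short windows and say nothing of where a factor binds.

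The libraries held 16226270 to 24286824 counts. Of 8 fibroblast and mesenchymal markers 8 were tested, with a summed level of 11184 to 14038 CPM (counts scaled to a common library size, with TMM factors) over all groups. FN1, SPARC and VIM make up most of that sum, while THY1 was nearly absent, averaging 0.310 CPM over the 28 libraries. Single markers differed in level between groups, COL1A1 averaging 383 CPM in DMSO, 169 with CLA18:2, 128 with RSL3+CLA18:2 and 139 with CLA18:3, and SPARC 2940 CPM in DMSO and 2206 with CLA18:2; their part in the results was not tested. The summed levels of 6 hepatocyte and 6 blood markers stayed under 1 CPM in each library. Of 6 adipocyte markers 2 were tested, with a summed level of 2.79 to 9.83 CPM, nearly all from FABP4, which averaged 3.53 CPM in DMSO and 6.71 with CLA18:3, while ADIPOQ had 0 counts in all 28. Of 6 epithelial markers 1 was tested, with a summed level of 1.78 to 3.92 CPM, mostly CLDN4. Mitochondrially encoded mRNAs took under 0.6% of counts in 8 libraries, among them 2 of CLA18:2 and 3 of RSL3+CLA18:2, and averaged 1.40% ± 0.101 in DMSO, 0.806% ± 0.544 with CLA18:2 and 0.640% ± 0.692 with RSL3+CLA18:2 (SD, n = 4). Leaving those 8 out keeps 1 library of RSL3+CLA18:2, replicate 3, which is assumed to vary like the others. Results that lost or gained a call, or moved by more than 1.5 times while called, are given with both values. Genes detected at a common total were 21647 ± 88.8 in DMSO, 19450 ± 816 in RSL3+CLA18:2 and 19017 ± 667 in CLA18:3 (SD, n = 4).

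The genes of the pathway were counted at very uneven levels. Per kilobase of annotated exon in DMSO, mean levels were 115 CPM for ACLY, 53.8 for FASN and 39.8 for SLC25A1. SREBF1 followed at 6.26, ACSS2 at 1.83, ACACA at 0.296 and ACACB at 0.176 CPM per kilobase. The counted levels of ACLY and FASN were thus far above those of both carboxylases, with a limit on the ACACA count that is given with its neighbours. MLXIPL was at the edge of detection, with 3 counts in all, 1 each in a DMSO, an RSL3 and a CLA18:2 library. The 0 counts elsewhere allow, over each group, up to 0.0349 CPM with LA, 0.0381 with RSL3+LA, 0.0375 with RSL3+CLA18:2 and 0.0368 with CLA18:3, for counting error only. MLXIPL was not tested, and the other 7 were.

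Over the 6 contrasts with DMSO jointly, 4 of the 7 tested genes differed between groups, ACLY (adjusted p = 2.53e-13), SREBF1 (3.15e-07), SLC25A1 (1.5e-06) and FASN (0.000146), by edgeR's quasi-likelihood test, adjusted over 16325 genes by the method of Benjamini and Hochberg. The same test called 57.4% of all tested genes, so 4 of 7 is near the background. ACSS2, ACACA and ACACB were called in none of the 15 comparisons. Every call for the 7 genes, in any comparison, was a lower level. The 6 contrasts with DMSO share its 4 libraries, so they are not independent of one another. How many of all tested genes had libraries without overlap between groups was not counted. Separate ranges given below thus describe single genes and do not set them apart from other genes. The p-values rest on the spread between replicates of 1 cell line, with 1 estimate per gene shared by all 7 groups. Estimated in each group alone over the tested genes, variation between replicates was 4.52% in DMSO, 15.1% in RSL3+CLA18:2 and 19.9% in CLA18:3. Tests of the latter 2 groups therefore use a spread pooled with tighter groups. A lower count cannot tell fewer expressing cells from less of that gene's RNA per cell.

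**Figure D1:**
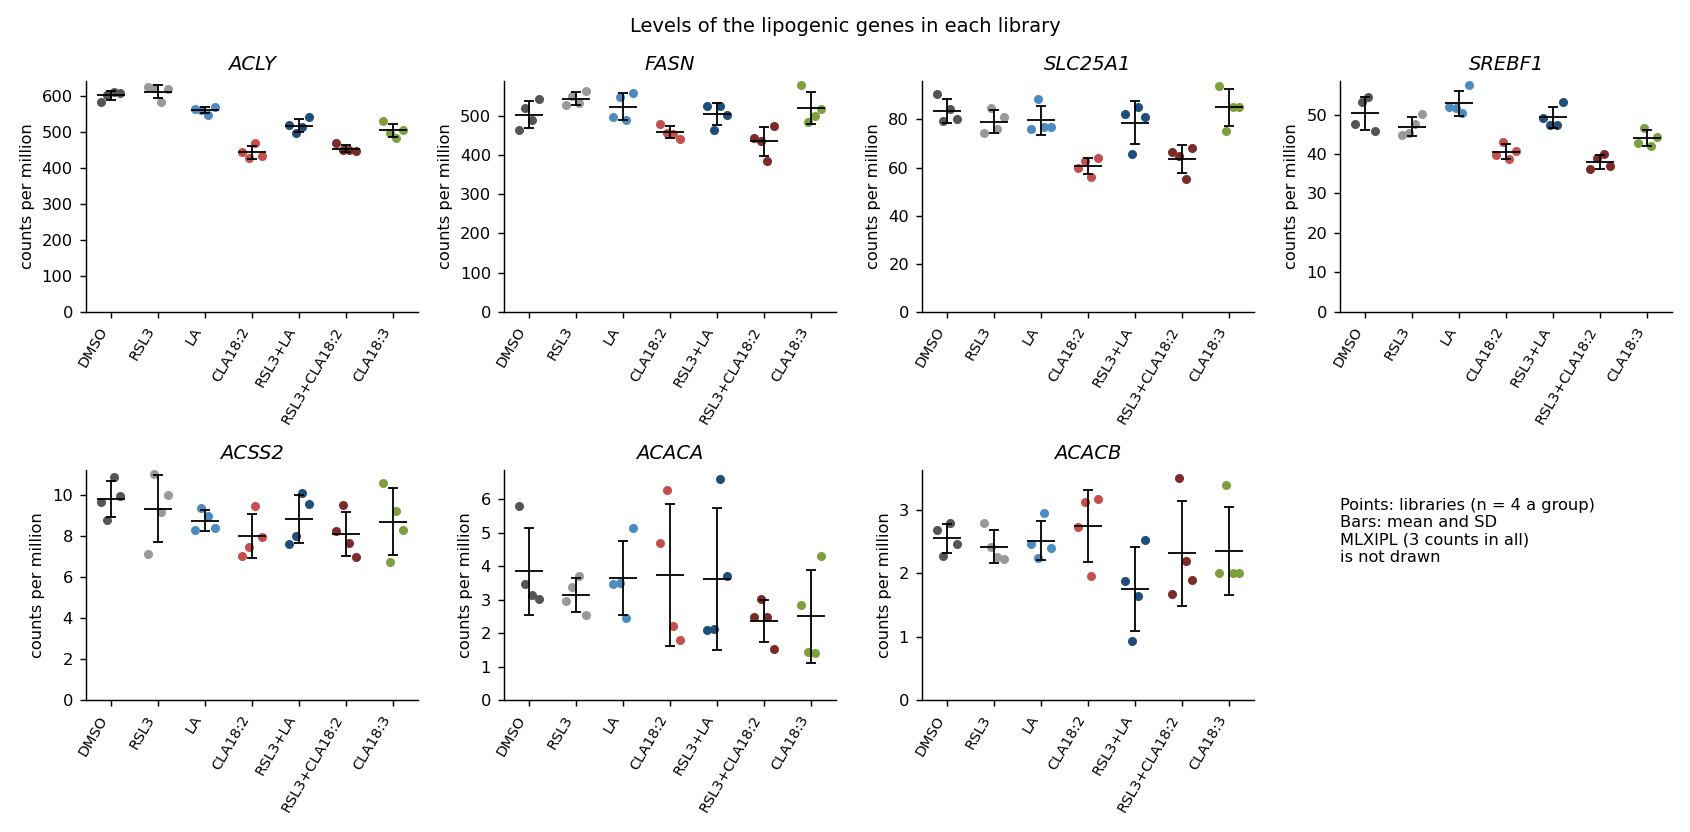
CPM of the 7 tested genes in each of the 28 libraries (points), with the mean and SD of each group of 4 (bars); every axis starts at 0. ACLY, SLC25A1 and SREBF1 are lower in both CLA18:2 groups than in DMSO, while the ACACA and ACACB points spread widely within a group.

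CLA18:2 lowered the citrate branch and SREBF1. Against DMSO, 3 of 7 tested genes fell with CLA18:2 and none rose, where 18.6% of all tested genes fell and 20.1% rose. The median log2 change of the 7 was -0.30, beside -0.02 over all genes.

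ACLY, which supplies most cytosolic acetyl-CoA in many cells, stood at 582, 603, 611 and 609 CPM in the 4 DMSO libraries. With CLA18:2 it stood at 443, 428, 469 and 433 CPM. Every CLA18:2 library was below every DMSO library. The log2 fold change was -0.44 ± 0.04 (SE; 0.737 of the DMSO level, adjusted p = 1.16e-11, edgeR).

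SLC25A1, the citrate carrier upstream of ACLY, fell as well. Its DMSO libraries gave 90.5, 79.2, 84.2 and 80.2 CPM. The CLA18:2 libraries gave 59.9, 62.7, 56.0 and 63.9 CPM and did not overlap with them. The log2 change was -0.46 ± 0.08 (SE; adjusted p = 6.61e-06, edgeR).

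SREBF1 was also lower in all 4 CLA18:2 libraries. It measured 47.5, 53.3, 54.5 and 45.9 CPM in DMSO. With CLA18:2 it measured 39.8, 43.1, 38.7 and 40.7 CPM. The log2 change was -0.31 ± 0.06 (SE; adjusted p = 0.000152, edgeR). Counts are per gene, so the SREBP1 isoforms, which use different first exons, are summed. Exons of RAI1 on the opposite strand cover 6.92% of SREBF1's exon bases and those of the antisense gene AC125257.2 cover 2.99% of ACLY's. The strand setting of the counting is not given in the sources used here.

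FASN, the synthase itself, was measured at 464, 519, 489 and 542 CPM in DMSO. The CLA18:2 libraries held 479.6, 457, 455 and 442 CPM, of which 3 were below every DMSO library and 1 was inside the DMSO range. Its log2 difference of -0.14 ± 0.06 (SE) did not pass the main test (adjusted p = 0.0669, edgeR). It passed with limma (0.0236), with only the 2 compared groups in the fit (0.0337) and without the 8 libraries low in mitochondrial mRNA (0.0413), at log2 values of -0.13, -0.13 and -0.16, and it did not with DESeq2. It also passed without DMSO replicate 1 (0.0395) or CLA18:2 replicate 1 (0.0499). ACSS2, the acetate-using enzyme, overlapped between the groups, with 9.66, 8.78, 10.9 and 9.98 CPM in DMSO and 7.06, 7.46, 9.49 and 7.99 CPM with CLA18:2. Its log2 difference was -0.30 ± 0.14 (SE; adjusted p = 0.0892, edgeR), and it passed with limma (0.026), with the 2 groups alone (0.0417) and without CLA18:2 replicate 3 (0.0409).

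With LA at the same dose no member passed the main test. None of the 7 genes was called by edgeR, where 3.41% of all tested genes fell and 4.91% rose. At an unadjusted p under 0.05 (edgeR) there was 1 of 7, beside 2977 of all 16325 tested genes. DESeq2 and limma each called 1. That gene was ACLY, at 563, 559, 548 and 569 CPM, each library below the lowest DMSO library. Its log2 difference was -0.10 ± 0.04 (SE; adjusted p = 0.103 in edgeR, 0.0299 in DESeq2 and 0.0062 in limma). SREBF1 held 51.9, 51.6, 50.3 and 57.4 CPM with LA, overlapping DMSO, at a log2 difference of 0.07 ± 0.06 (SE). FASN and SLC25A1 overlapped DMSO too, at 0.06 and -0.07.

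With RSL3 alone no member passed a test. Neither edgeR, DESeq2 nor limma called one, with 0.202% of all tested genes called in either direction by edgeR. At an unadjusted p under 0.05 (edgeR) there were 0 of 7, beside 989 of all 16325 tested genes. FASN stood at 528, 552, 533 and 563 CPM, a log2 difference of 0.11 (95% interval -0.01 to 0.23). ACLY stood at 624, 621, 583 and 618 CPM, 0.03 on the log2 scale (95% interval -0.05 to 0.10). The intervals of SREBF1 and SLC25A1 ran from -0.23 to 0.03 and from -0.23 to 0.08.

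CLA18:3, at its lower dose, lowered ACLY and SREBF1. Against DMSO 2 of 7 genes fell and none rose, where 16.7% of all tested genes fell and 19.1% rose. ACLY gave 529, 497, 484 and 505 CPM, below every DMSO library, with a log2 change of -0.25 ± 0.04 (SE; adjusted p = 1.94e-06, edgeR). SREBF1 gave 42.8, 46.6, 42.0 and 44.4 CPM, which overlapped the DMSO range, with a change of -0.20 ± 0.06 (SE; adjusted p = 0.0144, edgeR), and this call was lost without DMSO replicate 3 (0.0569). SLC25A1 was not called, at 94.0, 75.3, 85.3 and 85.4 CPM and 0.03 on the log2 scale (95% interval -0.13 to 0.18). FASN was not called either, at 579, 485, 501 and 518 CPM and 0.05 (95% interval -0.07 to 0.17). Side by side, SLC25A1 averaged 85.0 CPM with CLA18:3 and 60.7 CPM with CLA18:2, at unequal doses that were not compared.

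**Figure D2:**
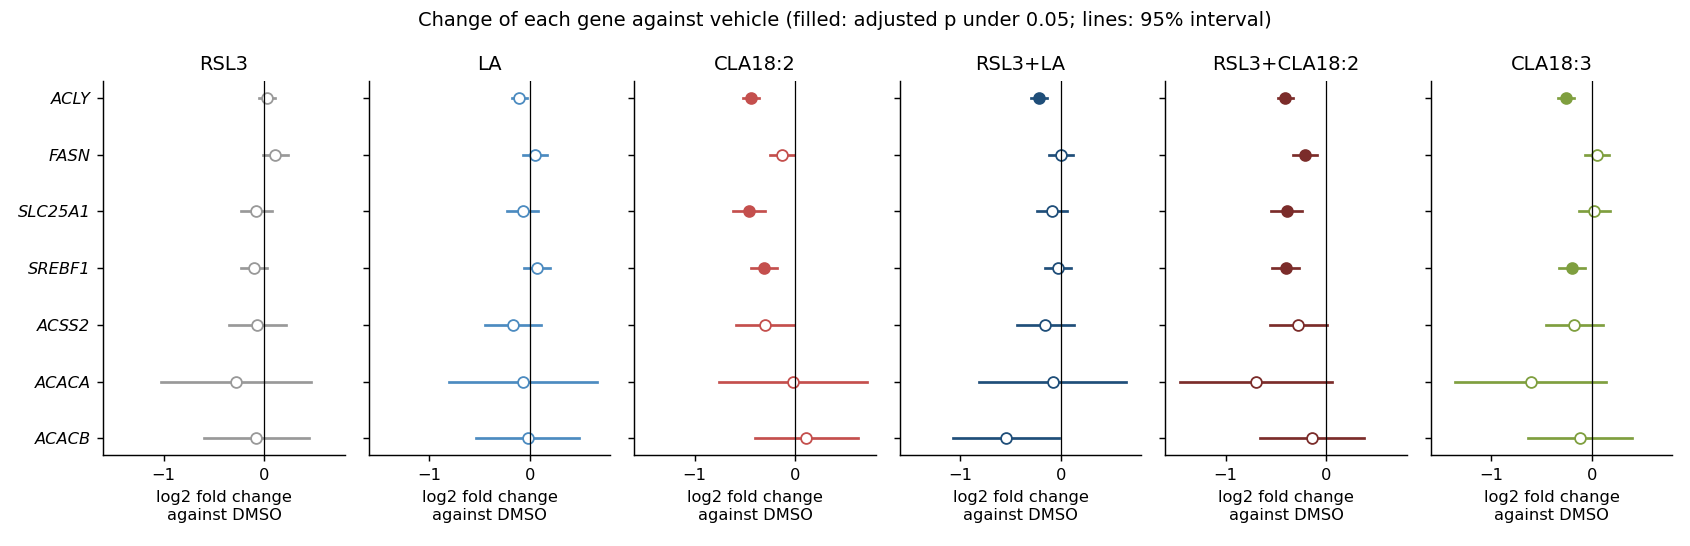
Log2 fold change against DMSO (horizontal axis) of the 7 tested genes under each of the 6 treatments, with 95% intervals; filled points passed the adjusted test. ACLY is filled in 4 panels, SREBF1 in 3, SLC25A1 in the 2 with CLA18:2 and FASN in RSL3+CLA18:2 alone, and the intervals of ACACA and ACACB are the widest.

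RSL3 with CLA18:2 lowered 4 of the 7 genes against DMSO, where 16.6% of all tested genes fell and 18.6% rose. ACLY held 468, 449, 451 and 446 CPM, SREBF1 36.2, 38.9, 40.1 and 36.8 CPM and SLC25A1 66.4, 65.0, 55.2 and 68.1 CPM, each gene below its DMSO range in every library. Their log2 changes were -0.41 ± 0.04, -0.41 ± 0.06 and -0.39 ± 0.08 (SE; adjusted p = 1.03e-10, 4.11e-06 and 9.32e-05, edgeR). FASN held 445, 436, 386 and 473 CPM, overlapping DMSO, with a change of -0.21 ± 0.06 (adjusted p = 0.00477, edgeR). This group had 3 of its 4 libraries low in mitochondrial mRNA. Without the 8 low libraries, the FASN change was -0.40 (adjusted p = 0.000306) and the SLC25A1 change -0.61 (0.000218, edgeR), the 1 library left being the lowest of its group for both genes.

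Against RSL3 alone, the same 4 genes were lower in RSL3+CLA18:2 (background 14.5% lower). ACLY changed by -0.43 ± 0.04, FASN by -0.32 ± 0.06, SLC25A1 by -0.31 ± 0.08 and SREBF1 by -0.30 ± 0.06 (log2, SE; adjusted p from 3.29e-11 to 0.00158, edgeR). The libraries of the 2 groups did not overlap for any of the 4, a share not counted over all genes. Without the 8 low libraries, the SREBF1 difference was -0.20 and lost its call, and that of SLC25A1 was -0.51. For SREBF1 the 1 RSL3+CLA18:2 library left, at 40.1 CPM, was the highest of its group. RSL3 replicate 4, which was left out, was the highest RSL3 library at 50.1 CPM. Against CLA18:2 alone, 0 of 7 genes were called in RSL3+CLA18:2 by edgeR, DESeq2 and limma, with 11.9% of all tested genes called by edgeR. At an unadjusted p under 0.05 (edgeR) there were 0 of 7, beside 3967 of all 16325 tested genes. There the intervals were -0.05 to 0.11 for ACLY, -0.23 to 0.04 for SREBF1 and -0.19 to 0.04 for FASN. FASN went from -0.08 to -0.24 and SLC25A1 turned from 0.07 to -0.22 without the 8 low libraries, and neither was called (adjusted p = 0.0967 and 0.329, edgeR).

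RSL3 with LA lowered ACLY and no other gene of the 7, where 4.81% of all tested genes fell and 5.43% rose. ACLY held 519, 496, 513 and 540.1 CPM, below every DMSO library, at -0.22 ± 0.04 (log2, SE; adjusted p = 9.51e-05, edgeR). Against RSL3 alone ACLY was again the 1 gene called, at -0.24 ± 0.04 (adjusted p = 2.2e-05, edgeR; background 5.80% lower). Against LA alone 0 of 7 were called by edgeR, DESeq2 and limma, with 0.0490% of all genes called by edgeR. At an unadjusted p under 0.05 (edgeR) there was 1 of 7, beside 1158 of all 16325 tested genes. That 1 was ACLY, at -0.11 ± 0.04 (adjusted p = 0.4, edgeR), with the RSL3+LA libraries all below the LA libraries. The SREBF1 level in RSL3+LA was 49.1, 47.4, 47.5 and 53.1 CPM and overlapped DMSO.

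The isomers differed at the matched dose. CLA18:2 gave lower levels than LA of 4 genes, ACLY, SREBF1, SLC25A1 and FASN, where 14.6% of all tested genes were lower. The log2 differences were -0.34 ± 0.04 for ACLY, -0.38 ± 0.06 for SREBF1 and -0.39 ± 0.08 for SLC25A1 (SE; adjusted p = 8.84e-09, 1.25e-05 and 0.000109, edgeR). The libraries of the 2 groups did not overlap for these genes, a share not counted over all genes. FASN was 498, 549, 489 and 557 CPM with LA, above every CLA18:2 library, a difference of -0.19 ± 0.06 (adjusted p = 0.011, edgeR). That call was lost without LA replicate 2 (0.0645), LA replicate 4 (0.0538) or CLA18:2 replicate 4 (0.0537). The other 3 were not called, with 95% intervals of -0.42 to 0.15 for ACSS2, -0.69 to 0.78 for ACACA and -0.38 to 0.65 for ACACB.

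With RSL3 present, the same comparison of isomers called the same 4 genes lower (background 12.0% lower). ACLY differed by -0.19 ± 0.04, SREBF1 by -0.37 ± 0.06, SLC25A1 by -0.30 ± 0.08 and FASN by -0.21 ± 0.06 (log2, SE; adjusted p = 0.000228, 2.7e-05, 0.00273 and 0.00605, edgeR). The ranges of SLC25A1 and FASN overlapped here, and those of ACLY and SREBF1 did not. Without the 8 low libraries the differences were -0.51 for SLC25A1 and -0.39 for FASN (adjusted p = 0.00225 and 0.000616, edgeR). No gene of the 7 was called in the 3 interactions, by edgeR, DESeq2 or limma, where 0.0245% of all genes were called for RSL3 by LA, 3.55% for RSL3 by CLA18:2 and 3.63% for RSL3 by isomer. At an unadjusted p under 0.05 (edgeR) there was 1 gene of the 7 in each. Among all 16325 tested genes there were 985 for RSL3 by LA, 2496 for RSL3 by CLA18:2 and 2554 for RSL3 by isomer. For ACLY the isomer interaction was 0.15 (95% interval 0.04 to 0.26, adjusted p = 0.135, edgeR). For SREBF1 it was 0.01 (95% interval -0.18 to 0.19).

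**Figure D3:**
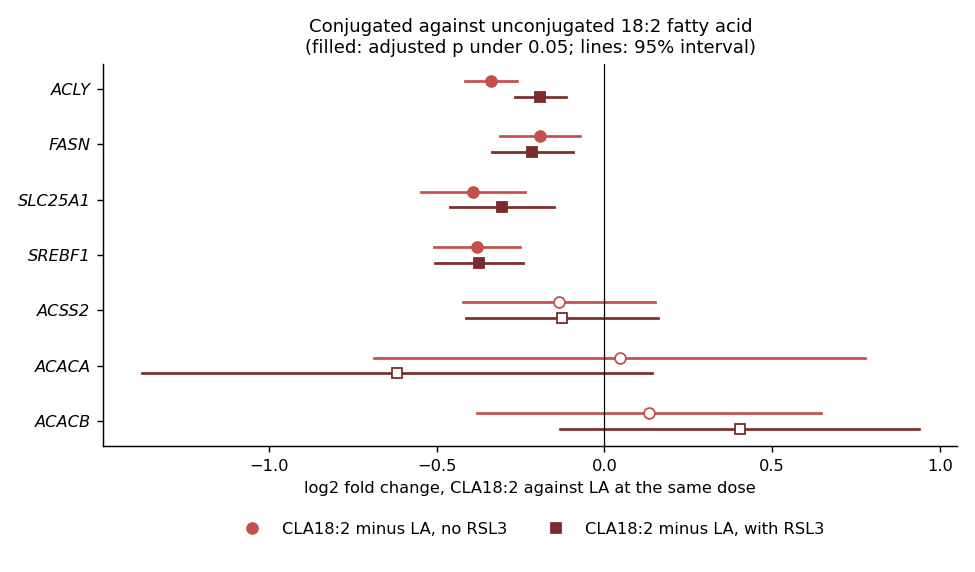
Log2 difference of CLA18:2 from LA (horizontal axis) at the same dose, without RSL3 (circles) and with it (squares), with 95% intervals; filled symbols passed the adjusted test. ACLY, FASN, SLC25A1 and SREBF1 lie below 0 in both settings, and the ACSS2, ACACA and ACACB intervals all include 0.

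The order of the groups differed between genes. ACLY ran from RSL3 (612 CPM) and DMSO (601) through LA (559.9), RSL3+LA (517) and CLA18:3 (503.8) to RSL3+CLA18:2 (453) and CLA18:2 (443). Neighbours in that order overlapped between RSL3 and DMSO, RSL3+LA and CLA18:3, and the last pair, and were separate elsewhere. SREBF1 ran from LA (52.8 CPM) through DMSO, RSL3+LA, RSL3, CLA18:3 and CLA18:2 to RSL3+CLA18:2 (38.0 CPM), and all 6 neighbouring pairs overlapped. SLC25A1 ran from CLA18:3 (85.0 CPM) to CLA18:2 (60.7 CPM) and FASN from RSL3 (544 CPM) to RSL3+CLA18:2 (435 CPM), with every neighbouring pair overlapping. The 8 genes together took 0.127% ± 0.00389 of counts in DMSO, 0.102% ± 0.00227 with CLA18:2 and 0.0988% ± 0.00403 with RSL3+CLA18:2 (SD, n = 4), most of it FASN and ACLY.

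Both carboxylases were too sparsely counted to follow. ACACA had 26 to 133 counts in a library. Its DMSO libraries gave 5.78, 3.47, 3.13 and 3.01 CPM, the CLA18:2 libraries 4.68, 6.28, 2.20 and 1.81 CPM and the RSL3+CLA18:2 libraries 2.47, 3.02, 2.47 and 1.53 CPM. The CLA18:2 libraries thus spanned the whole DMSO range. The coefficient of variation within a group ran from 16.1% to 58.4%. The log2 difference in RSL3+CLA18:2 was -0.70 ± 0.37 (SE; adjusted p = 0.149, edgeR), and it passed (0.0375) only when the low-count filter was dropped.

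Genes beside ACACA on chromosome 17 (ACACA at 37084988 to 37406818, minus strand, GENCODE 29 on GRCh38) were sparse as well, and those named were picked after their counts were seen. AATF had 0 to 3 counts in each of the 28 libraries, ZNHIT3 0 to 1 and MYO19 0 to 2. TADA2A, whose start lies next to that of ACACA, had 30 to 140 and SYNRG 20 to 140 counts, while DDX52 had 203 to 485. The annotation used for the counting is not given in the sources used here, and the part of this region in the ACACA count was not tested. The ACACA level is therefore given as counted, without a reading of how much ACACA the cells made.

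ACACB had 2.68, 2.27, 2.79 and 2.45 CPM in DMSO and 1.89, 0.937, 1.64 and 2.53 CPM in RSL3+LA, its lowest group. That log2 difference was -0.54 ± 0.26 (SE; adjusted p = 0.218, edgeR) and the ranges overlapped. ACSS2 averaged 9.83 ± 0.876 CPM in DMSO and 8.003 ± 1.06 CPM with CLA18:2 (SD, n = 4), its highest and lowest groups. Its 6 log2 differences from DMSO were all negative, from -0.30 to -0.07, and none was called.

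Ratios of counts within a library need no scaling between libraries. FASN per ACLY was 0.797 to 0.891 in DMSO and 0.971 to 1.08 with CLA18:2, without overlap (log2 difference 0.31). It was 0.975 to 1.09 with CLA18:3 (0.30) and 0.931 to 1.02 with RSL3+LA (0.22). Each of these 3 had an exact two-sided permutation p of 0.0286, the smallest that 4 against 4 libraries can give. After adjustment over the 18 ratios tested this permutation p was 0.129, and none passed. With that floor a ratio could pass only if most of the 18 sat at it. The adjusted values therefore cannot decide whether these 3 ratios differ. SLC25A1 per ACLY with CLA18:2 was 0.120 to 0.148, against 0.132 to 0.156 in DMSO (exact permutation p adjusted to 0.857). SREBF1 per SREBF2, the gene of the sterol-directed SREBP, was 0.253 to 0.300 with CLA18:2 and 0.239 to 0.282 in DMSO (exact permutation p = 0.371). With RSL3+LA it was 0.283 to 0.333, above every DMSO library (log2 difference 0.25, exact permutation p = 0.0286, adjusted 0.129). These ratios were chosen after the data were seen.

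**Figure D4:**
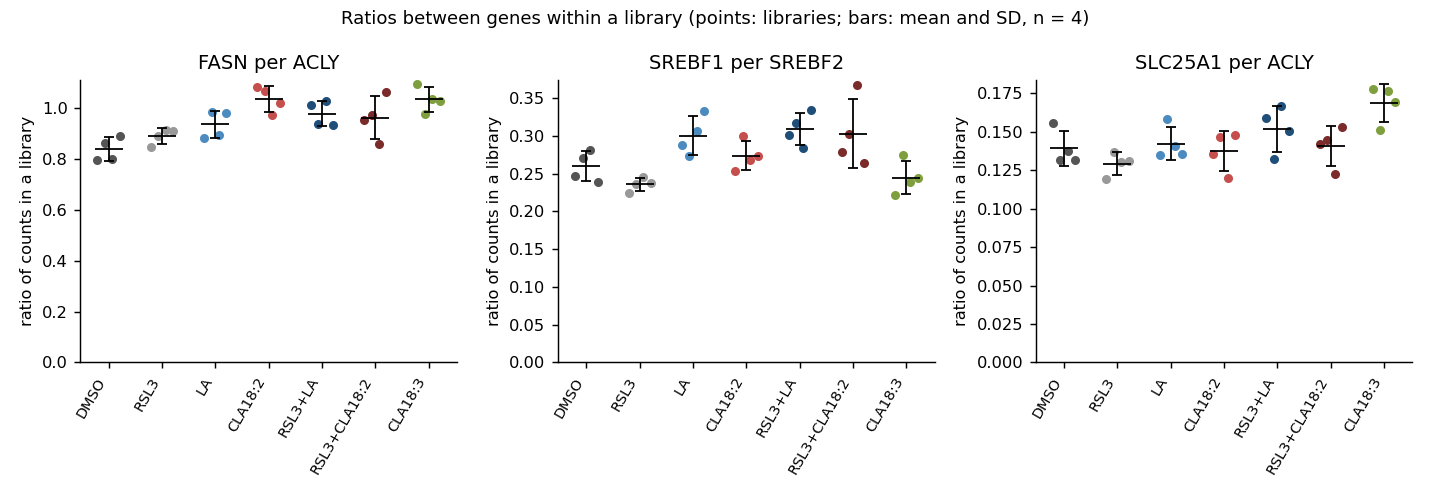
Ratio of counts of 2 genes within each library (points), with the mean and SD of each group of 4 (bars); axes start at 0. FASN per ACLY is above the DMSO libraries in every library of CLA18:2, RSL3+LA and CLA18:3, while SLC25A1 per ACLY with CLA18:2 overlaps DMSO.

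The surrounding lists are read against the shares of all tested genes, which were 20.1% higher and 18.6% lower with CLA18:2, 4.91% and 3.41% with LA, and 19.1% and 16.7% with CLA18:3. Of 12 tested SREBP1 targets beyond FASN (14 listed), 7 fell and 2 rose with CLA18:2, the 2 being near the share of all genes, and 2 fell and 2 rose with LA. SCD, the stearoyl-CoA desaturase, went from 423 CPM in DMSO to 141 with CLA18:2 (log2 -1.59 ± 0.05, SE) and 283 with LA (-0.58 ± 0.04). FADS2 and FADS1, the desaturases of polyunsaturated chains, fell with CLA18:2 (-0.64 ± 0.05 and -0.31 ± 0.04). ELOVL6, which lengthens palmitate, rose with CLA18:2 (0.32 ± 0.08) and LA (0.45 ± 0.08). GPAM, the first step of glycerolipid synthesis, rose with LA (0.37 ± 0.09) and fell with CLA18:3 (-0.43 ± 0.09).

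Of suppliers of acetyl-CoA and citrate, 5 of 11 tested fell and 2 rose with CLA18:2, the latter near the share of all genes, at a median log2 change of -0.14. CS, citrate synthase, fell (-0.20 ± 0.05) as did IDH2 (-0.46 ± 0.09). MPC2, a subunit of the mitochondrial pyruvate carrier, was at 0.12 with CLA18:2 and was not called, and rose with CLA18:3 (0.41 ± 0.08).

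Genes that supply NADPH for fatty acid synthesis went the other way from ACLY. Of 8 tested, 7 rose and none fell with CLA18:2 (median log2 change 0.48), 7 rose with CLA18:3 (0.60) and 3 rose with LA (0.12). ME1, the cytosolic malic enzyme, went from 47.3 to 114 CPM with CLA18:2 (1.27 ± 0.06). TALDO1 (0.95 ± 0.04) and PGD (0.77 ± 0.04) of the pentose phosphate pathway rose with it. NADPH from these enzymes also serves redox defence.

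Of 15 genes that process SREBPs, 5 rose and 2 fell with CLA18:2, beside 20.1% and 18.6% of all tested genes. INSIG1, which holds SREBPs in the endoplasmic reticulum and is itself an SREBP target, fell by 1.28 on the log2 scale with CLA18:2 and 0.42 with LA. INSIG2 rose with CLA18:2 (0.69 ± 0.07). RNF145, a ubiquitin ligase of the sterol-sensing machinery, rose with both isomers, LA (1.24 ± 0.05) and CLA18:2 (1.25 ± 0.05). SREBF2 fell with CLA18:2 (-0.38 ± 0.06), and SCAP, the SREBP escort, was at 0.06 (95% interval -0.06 to 0.19) and was not called. Of 12 SREBP2 target genes kept for comparison, 12 fell with CLA18:2 (median -0.94), 11 with LA (-0.36) and 5 with CLA18:3, where 1 rose (-0.09). Among them HMGCS1 (-1.27 ± 0.05), DHCR7 (-0.94 ± 0.05) and FDFT1 (-0.81 ± 0.06), enzymes of sterol synthesis, fell with CLA18:2.

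The liver X receptor axis, which induces SREBF1 in liver, had 3 genes higher and 1 lower of 7 with CLA18:2, and 2 higher with LA. Of all tested genes, 20.1% were higher and 18.6% lower with CLA18:2, and 4.91% were higher with LA. The 1 lower gene is thus near the share of all genes. ABCA1, a sterol exporter, rose with LA (0.60 ± 0.13) and CLA18:2 (0.67 ± 0.13). It averaged 13.5 CPM in DMSO, 20.3 with LA, 21.4 with CLA18:2 and 17.2 with RSL3+LA. With RSL3+CLA18:2 and CLA18:3 its means, 11.6 and 11.5 CPM, were not above that of DMSO. The receptor genes NR1H2 (0.32 ± 0.06) and RXRA (0.48 ± 0.06) rose with CLA18:2, and MYLIP fell (-0.69 ± 0.27). Of 5 tested genes around MLXIPL, 1 rose and 2 fell with CLA18:2, the 1 being near the share of all genes. TXNIP fell (-0.73 ± 0.09) and ARRDC4 rose (1.32 ± 0.23), both being known targets of MondoA, whose gene MLXIP was at -0.05 and was not called. KHK fell (-0.83 ± 0.23).

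Of 11 genes that control the carboxylases, 1 rose and 1 fell with CLA18:2, under the shares of 20.1% and 18.6% over all genes. CAMKK2, a kinase upstream of AMPK, was the lower one (-0.37 ± 0.09). With RSL3+CLA18:2 3 of the 11 fell and 1 rose, and with CLA18:3 3 fell, beside 16.6% and 16.7% of all tested genes lower. The AMPK subunit genes PRKAB2 and PRKAG2 fell with RSL3+CLA18:2 (-0.43 ± 0.09 and -0.34 ± 0.09), and PRKAA1 fell with CLA18:3 (-0.25 ± 0.06). PRKAA1 averaged 106.6 CPM in DMSO and 107.5 with RSL3+CLA18:2. From DMSO to CLA18:3, PRKAG2 went from 29.6 to 32.3 CPM and PRKAB2 from 42.9 to 35.4 CPM. Of 10 genes of mitochondrial fatty acid synthesis, 2 rose and 3 fell with CLA18:2, near the shares over all genes. NDUFAB1, the mitochondrial acyl carrier, rose (0.30 ± 0.05) with OXSM (0.48 ± 0.11), and LIAS (-0.57 ± 0.12) and MECR (-0.32 ± 0.11) fell. With RSL3+CLA18:2, 2 genes of this list rose and 0 fell. There LIAS averaged 16.4 CPM, against 16.8 in DMSO, and MECR 20.7 CPM, against 20.4. With RSL3 alone edgeR called 0 genes in each of the 9 lists. At an unadjusted p under 0.05 there were 5 of the 8 tested NADPH genes, beside 989 of all 16325 tested genes. The RSL3 by CLA18:2 interaction (background 3.55%) was called for 3 of 8 NADPH genes and 2 of 15 SREBP-processing genes. It was also called for 1 of 7 liver X receptor genes and 1 of 12 sterol genes. The RSL3 by isomer interaction (3.63%) was called for 3 of 12 SREBP1 targets and 2 of 12 sterol genes. It was also called for 1 of 11 acetyl-CoA suppliers, 1 of 15 SREBP-processing and 1 of 7 liver X receptor genes. RSL3 by LA was called for 0 genes in each list.

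**Figure D5:**
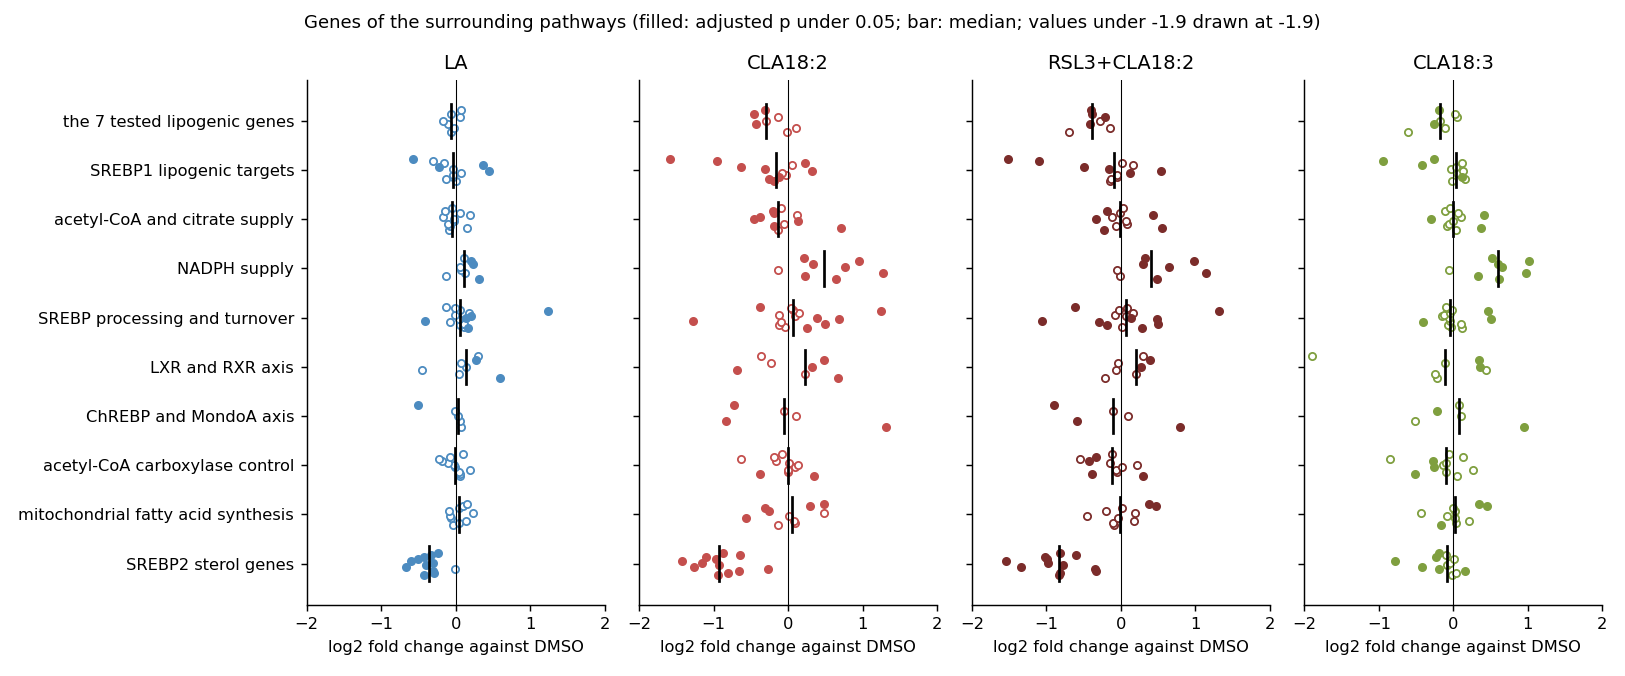
Log2 fold change against DMSO (horizontal axis) of each tested gene (points, filled where the adjusted test was passed) in the 7 lipogenic genes and 9 surrounding lists, with the list's median (bar) and far lower values drawn at the left edge as the title states, under LA, CLA18:2, RSL3+CLA18:2 and CLA18:3. The sterol genes lie lower than 0 and the NADPH genes mostly above 0 with CLA18:2, on either side of the lipogenic genes.

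Across the 28 libraries, the genes whose log2 CPM followed a member most closely, of 11953 genes with a mean of at least 2 CPM, were named as a description. Libraries of a group share their treatment, so these values reflect group means as well as single libraries. For FASN they were SREBF2 (Pearson's r = 0.84), NKX2-5 (0.80) and MICALL1 (0.77). For ACLY they were RGS4 (0.96), THBS1 (0.96) and TGM2 (0.96), for SREBF1 TNFRSF21 (0.90), TRIM65 (0.88) and LIPG (0.87), and for SLC25A1 MAEA (0.88), TRAF4 (0.88) and PCBP4 (0.87). ACSS2, ACACA and ACACB had no gene above 0.68. Among the members, r was 0.72 for ACLY with SREBF1, 0.76 for FASN with SLC25A1 and 0.70 for FASN with ACLY.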

How the data were processed

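The authors deposited raw counts per gene for 28 HT-1080 libraries. Per the labels' protocols, total RNA was sequenced as paired reads by Illumina. The submitters' processing notes name the build hg38 and the tools featureCounts, HISAT, DESeq2 and SAMtools. Versions, annotation and strand setting are not given in the sources used here. Genes carry the symbols of the deposited tables.

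From these counts, edgeR 4.0.16 in R 4.3.3 kept 16325 of 60286 genes with its default filter on the 7 groups, scaled libraries by TMM and fitted 1 mean per group to all 28 libraries. The 12 pairs, the 3 interactions and the 6 contrasts with DMSO together were tested by quasi-likelihood F tests, with Benjamini-Hochberg adjustment over all tested genes at 0.05. Each SE is the size of the log2 fold change over the square root of F, and intervals are at 95%. Library totals of 16226270 to 24286824 set the precision. Alternatives were DESeq2 1.42.0, its size factors, limma 3.58.1 voom weights shared within a group, no filter, only the compared groups, a replicate block, and each library left out. Without libraries under 0.6% mitochondrial mRNA was added after seeing the data. The code was tested on simulated counts.

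Replicates are independent by the series' own design text, and no label names a batch. Counts of any 2 replicates differed beyond sampling noise (chi-square over its degrees of freedom 2.42 to 27.8), and no library appears to be deposited again. The members, lists and named genes (all members, the 4 genes of each list with the smallest p over the groups, and fixed comparison genes) were chosen with earlier results of these data known, so none is independent support. Values of some genes that this rule names are not reported here. Positions and exon lengths are from GENCODE 29. Promoters are from RefSeq, with none for FASN. Figures were drawn with matplotlib 3.10.9 in Python 3.11.15.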

Additional observations from a re-analysis of the deposited data

Results flagged for a closer look

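A library was picked out where its gap to the nearest of the other 3 exceeded Dixon's 95% value as a share of the group's whole range, which chance gives in about 1 of 20 groups. Among 52 sets of 4 values, 7 were picked out. ACACA in DMSO replicate 1 was at 5.78 CPM, above the other 3 DMSO libraries at 3.01 to 3.47, on 110 counts. ACACB in CLA18:3 replicate 2 was at 3.39 CPM, above the others at 2.00 to 2.01. ACLY in RSL3 replicate 3 was at 583 CPM, under the others at 618 to 624, on 11154 counts. SLC25A1 in LA replicate 2 was at 88.4 CPM, above the others at 76.1 to 77.0. MLXIPL in DMSO replicate 1 (0.0525 CPM), RSL3 replicate 2 (0.0464 CPM) and CLA18:2 replicate 2 (0.0472 CPM) each rest on 1 count beside 3 libraries with 0. There the gap equals the range by construction, so these 3 of the 7 carry no information and the chance of 1 in 20 does not apply to them. None of the 3 interactions was called for a member.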

How the results depend on the processing

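The members called were the same number in each alternative for 9 of the 16 results, leave-one-out included. With LA against DMSO, 1 was called in place of 0 with DESeq2, with limma voom and with only the compared groups, each time ACLY. With CLA18:2 against DMSO, 5 were called in place of 3 with limma voom and with only the compared groups, by the addition of FASN and ACSS2. Leaving out 1 library in turn gave 3 to 4 for CLA18:2 against DMSO, 3 to 4 for CLA18:2 against LA and 1 to 3 for CLA18:3 against DMSO, where the SREBF1 call was lost without DMSO replicate 3. Without CLA18:3 replicate 4, ACACA passed there at -1.02 (adjusted p = 0.0434). Without the low-count filter, 5 were called in place of 4 for RSL3+CLA18:2 against DMSO and for any of the groups. Without the 8 libraries low in mitochondrial mRNA, the counts were 4 for CLA18:2 against DMSO and 3 for RSL3+CLA18:2 against RSL3, and FASN and SLC25A1 in RSL3+CLA18:2 moved by over 1.5 times in some comparisons, as given with those results. The causes were not tested. The fit with only the compared groups was not run for the joint test over all groups.

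Of 728 member values under alternatives other than leave-one-out, 718 kept their call, 9 gained and 1 lost one, and none reversed. Of 1008 leave-one-out values, 1000 kept it, 4 gained and 4 lost one. In 120 values of either kind the sign differed with no call on either side. Levels under DESeq2 size factors moved by less than 1 SD in 56 of 56.

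The fit with a replicate block called 3 members for CLA18:2 against DMSO, 4 for RSL3+CLA18:2 against DMSO, 4 for CLA18:2 against LA and 2 for CLA18:3 against DMSO, as without it. The replicate numbers were not taken to pair the libraries, since none of 21 pairs of groups had all 4 same-number correlations of residuals over 0.1 across all tested genes. Among the 2283 genes with a mean of at least 100 CPM, 2 of 21 did, RSL3 with LA and RSL3 with RSL3+LA.

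ACACA, ACACB and ACSS2 have few counts and wide intervals, and MLXIPL has no interval. Why ACACA was counted so low was not tested. Counts are relative, so a change in total RNA per cell would not show in them and amounts per cell are unknown. Protein, flux and SREBP1 cleavage were not measured.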
